A study of Arabidopsis thaliana with 12 samples.

Results

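The response to cellotriose (CT) was measured in roots of Arabidopsis thaliana seedlings in which the receptor kinase gene CORK1 was intact. The plants were segregated wild type (SWT) from a cross between the T-DNA insertion line cork1-2 and a wild type that carries aequorin, a calcium-reporting protein, so that every plant used came from 1 insertion line. The comparison holds 6 of the 12 libraries of the study, 3 of SWT roots given 10 µM CT and 3 of SWT roots given water, both for 1 h, and all 23106 genes of the table were used. Each library was made from 16 seedlings on 2 dishes of 8, which had grown for 10 days and then stood for 1 day on fresh medium before 1 mL of solution was applied. The other 6 libraries came from plants of the same cross that were homozygous for the insertion (HO), given CT or water in the same way, and are used only where a response in SWT is set against that in HO.

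CT is a chain of β-1,4-linked glucose units, a breakdown product of cellulose. Fragments of the plant's own wall are known as damage signals: receptor kinases at the cell surface sense them and set off calcium influx, reactive oxygen production, protein kinase cascades and new transcription, as they also do for microbial signals such as chitin. Defence in roots of Arabidopsis relies on indolic compounds made from tryptophan, on phenylpropanoids that strengthen the wall or are secreted, and on peptides that spread the alarm. CORK1 encodes a receptor kinase with leucine-rich repeats and a malectin domain, and the comparison asked which transcripts change with CT where this receptor is present.

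The authors' deposited table gives 1 mean normalized read count per gene over all libraries, and a log2 fold change of CT over water with its standard error (SE) and Wald test. Values per library were not used here because the tables hold 0 columns of them, and the depth per library is unknown. Group means were recovered from the mean counts and the fold changes, and error is given as the SE of the log2 fold change, n = 3 libraries per group. A gene was called when its Benjamini-Hochberg adjusted p (Wald test) was below 0.05 and its mean changed at least 2.51-fold in either direction. Nothing in the labels says whether the libraries came from separate experiments, so the p-values measure the spread between these libraries only.

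Most markers of root tissues did not pass the test. The 5 markers of root tip and cap had log2 fold changes between -0.26 and 0.03, the 5 of root hairs and epidermis between -0.44 and 0.20, and the 4 of the endodermis between 0.02 and 0.26, and 0 of these 14 passed the test. The endodermal gene CASP1 had a group mean of 4072 in SWT CT and 3941 in SWT water. Of the 6 stele markers, APL passed with a log2 of 0.50 (SE 0.18). The 3 markers of nutrient uptake had a median log2 of -0.22, with IRT1, the iron transporter described below, called down and 2 not passing. Markers of green shoot tissue were present as well, with 1818 in SWT CT and 3120.2 in SWT water for LHCB1.3, a protein of the light-harvesting antenna. Their list had a median log2 of -0.64: LHCB2.1, LHCB4.2 and PSBO1 were lower with CT (log2 -0.86, -0.81 and -0.77), while CA1 was called up at a low level, with a group mean of 30.6 in SWT CT and 9.0 in SWT water. The summed counts of these 8 genes made up 0.0219% of all counts in SWT CT and 0.0367% in SWT water, and their part in the results below was not tested. In such bulk samples fewer cells of a type and less RNA per cell cannot be told apart.

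More transcripts rose than fell with CT. Of 23103 genes with a test, 561 (2.43%) were called up and 54 (0.234%) called down, so that 91.2% of the called genes were higher with CT. At any size of change, 1806 genes (7.82%) rose and 702 (3.04%) fell. Against the fold criterion itself (one-sided z test, Benjamini-Hochberg), 139 genes passed going up and 0 going down, and at an unadjusted p below 0.05 in the Wald test 4808 genes differed. With Wald statistics divided by their robust spread of 1.45, their scaled median absolute deviation, 419 genes were called up and 20 down, and the marker CA1 was not called (adjusted p 0.428, Wald test, Benjamini-Hochberg). In HO, CT gave 2 calls (0.00866%), CYP82C2 and the cupredoxin family gene AT3G60270, both also called up in SWT. The difference between the responses of SWT and HO was tested for each gene and passed for 913 genes (3.95%; z test, Benjamini-Hochberg), with 764 of them more positive in SWT. It passed for 349 of the 561 genes called up (62.2%), all with the larger response in SWT, and for 21 of the 54 called down (38.9%). The genes called up had a median log2 of 1.96 in SWT and 0.21 in HO, and those called down -1.74 in SWT and 0.02 in HO; the SWT values chose these genes.

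**Figure D1:**
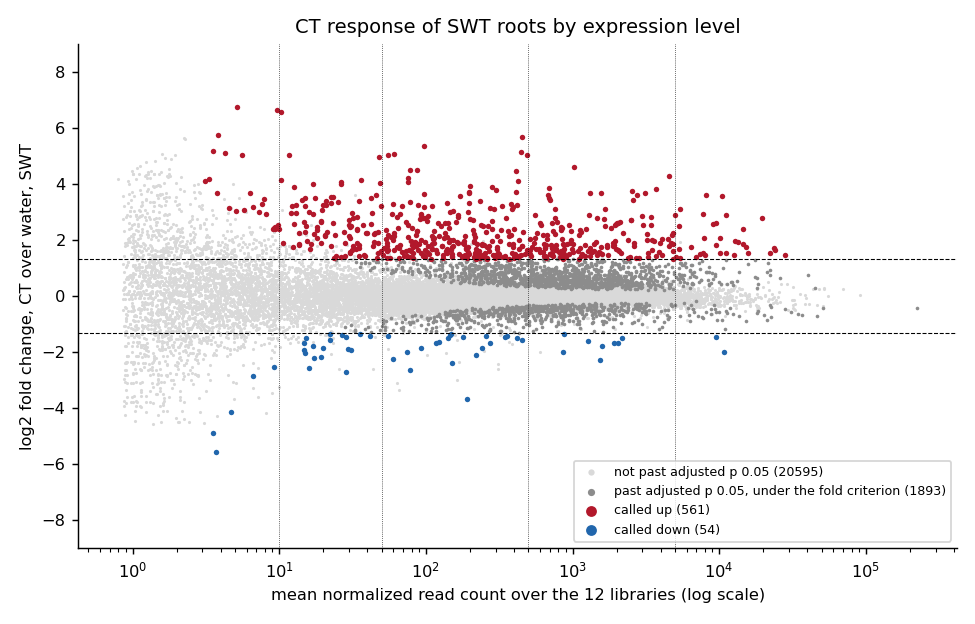
Log2 fold change of CT over water in SWT (vertical) against the mean normalized read count over the 12 libraries (horizontal, log scale), 1 point per gene. Red and blue points are the 561 genes called up and the 54 called down, dashed lines mark the fold criterion of 2.51-fold, and dotted lines the limits of the 5 classes of expression; red points outnumber blue ones in all 5 classes.

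The share of genes called varied with their mean count, which is not corrected for gene length. In the class with a mean under 10 normalized counts, 23 of 3052 genes (0.754%) were called up and 5 down. From 10 to 50 counts the share called up was 4.02% of 2490 genes, from 50 to 500 it was 2.67% of 9005, from 500 to 5000 it was 2.09% of 7901, and at 5000 and over it was 5.04% of 655. The share that rose at any fold climbed through all 5 classes, with 0.754%, 4.58%, 7.13%, 11.6% and 16.6%, and the share that fell with 0.164%, 1.04%, 3.20%, 4.27% and 7.02%. Over the same classes the median SE of the log2 fold change was 1.36, 0.48, 0.21, 0.14 and 0.15, so the smallest rise that passed shrank to a log2 of 0.21 in the class from 500 to 5000, against 2.39 in the class under 10. In the lowest class 44.0% of the genes carried no adjusted p at all, and only large changes could be detected there at this depth.

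The size of the called changes ran the other way. Genes called up had a median log2 of 3.27 in the lowest class, 2.39 from 10 to 50, 1.87 from 50 to 500, 1.84 from 500 to 5000 and 1.76 at 5000 and over. Low genes can pass only with a large change, so these medians are not a comparison of responses. The test against HO followed depth as well: it passed for 8.70% of the genes called up in the lowest class, 25%, 63.3% and 85.5% in the next 3, and 87.9% in the highest. Of the 561 genes, 291 lay between the criterion and a log2 of 2, 169 between 2 and 3, 71 between 3 and 4, 16 between 4 and 5, and 14 at 5 or more. The genes of the last class had low counts, with a median group mean of 38.5 in SWT CT and 0.964 in SWT water.

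**Figure D2:**
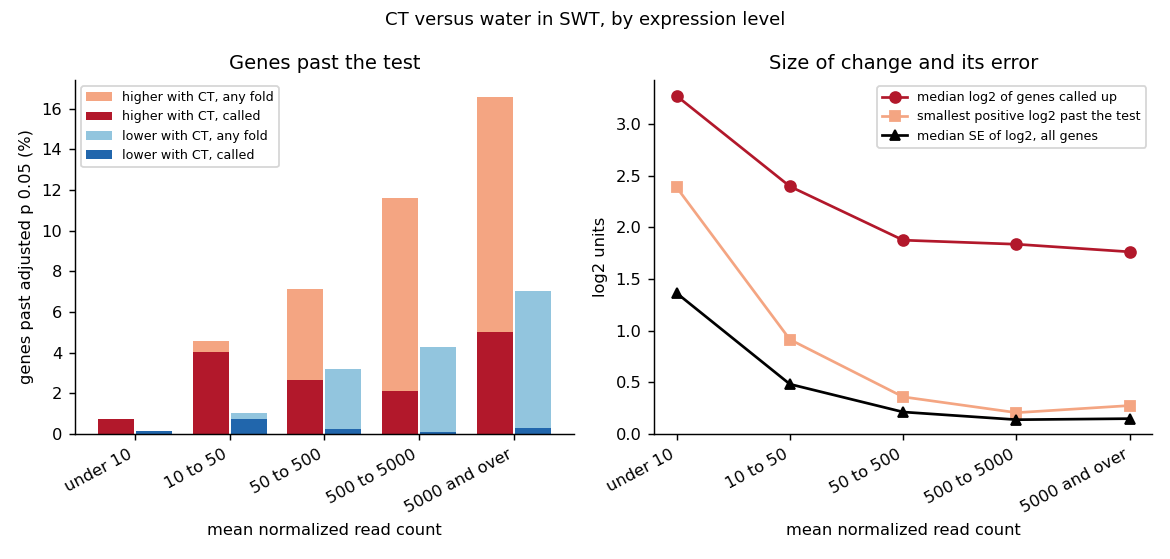
Left, the percentage of genes in each of 5 classes of mean normalized read count that passed adjusted p 0.05 in SWT, higher or lower with CT, at any fold (light) or called (dark). Right, the median log2 of the genes called up, the smallest positive log2 that passed and the median SE in the same classes; the share that rose at any fold reached 16.6% in the highest class where the median SE was 0.15.

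Each class had its extremes. Below 10 counts the call with the largest Wald statistic was AT1G54957, an uncharacterized gene with 105 normalized counts summed over SWT CT and 1 over SWT water, a ratio of 105 (95% interval by the exact Clopper-Pearson method, 18.4 to 4186, for counting error only). The lowest statistic of that class belonged to AT4G31398, with 1 normalized count summed over SWT CT and 27 over SWT water after rounding, a ratio of water over CT of 27 (95% interval by the same method, 4.45 to 1105). From 10 to 50 the leading gene was RLP38, a receptor-like protein without a kinase domain, with a group mean of 181 in SWT CT and 5.80 in SWT water and a log2 of 4.96 (SE 0.54). AT5G41050, annotated in the Ole e 1 and extensin family, had the lowest statistic there, with 6.51 in SWT CT and 42.4 in SWT water. Both genes of lowest statistic lost their call with the robust spread, AT4G31398 at an adjusted p of 0.234 and AT5G41050 at 0.0698 (Wald test, Benjamini-Hochberg).

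From 50 to 500 the smallest p of the whole table belonged to AT1G15625, annotated as an E3 ubiquitin ligase (TAIR10.1, chr1:5374755-5375910, 3 exon blocks). Its group mean was 1813 in SWT CT and 55.7 in SWT water, a log2 of 5.02 (SE 0.24) with an adjusted p of 1.23e-90 (Wald test, Benjamini-Hochberg). Genes with high counts passed with smaller changes. LOX1, a lipoxygenase of the 9-position of fatty acids, had 33153 in SWT CT and 9057 in SWT water, a log2 of 1.87 (SE 0.11). On the other side stood NRT1.5, which loads nitrate into the xylem, with 3189.8 in SWT CT and 12809 in SWT water and a log2 of -2.01 (SE 0.29), and CYP71B26, a cytochrome P450 with 289 in SWT CT and 1168 in SWT water and -2.01 (SE 0.23).

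Within the set of genes called up, much of the added RNA came from few genes. The genes called up held 7.65% of all normalized counts in SWT CT and 2.04% in SWT water, beside 2.01% in HO CT and 1.77% in HO water. Without PEN3, the called gene of highest mean, the shares in SWT were 7.40% with CT and 1.94% with water. As few as 29 of the genes called up made up 50% of the counts gained by that set. PEN3, a transporter that exports indolic and other defence compounds, had 54490.3 in SWT CT and 19754 in SWT water, and CYP83B1, which commits the pathway to indole glucosinolates, 55122 in SWT CT and 7957 in SWT water. The genes that rose without reaching the fold criterion, 1245 in number, held 13.1% of the counts with CT and 8.71% with water. Their summed group means rose by 1.08e+06 with CT, beside 1.24e+06 for the genes called up. Those called down held 0.0684% with CT and 0.240% with water. The SWT values chose these sets, so the direction of their change in SWT was fixed by the choice.

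Spread between libraries, recovered from the SEs as a coefficient of variation, had a median of 25% in the genes called up, 32.5% in those called down and 13.5% in the other genes with a mean of at least 50. It was not even among the called genes: the 7 genes called up in tryptophan synthesis had a median of 15.9% and the 7 of the camalexin and cyanogenic pathway one of 46.9%. DIR5, a dirigent protein, stood at 96.2%, the heat response chaperone HSP90.1 at 70.2%, and JAZ8, a repressor of jasmonate responses, at 70.0%. With the robust spread HSP90.1 and JAZ8 lost their call (adjusted p 0.362 and 0.398, Wald test, Benjamini-Hochberg).

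Promoters of the genes called up often held the W-box core, the short motif that WRKY transcription factors bind. The promoters were the 250 bases before and 50 bases after the annotated start in TAIR10.1, for 21878 protein-coding genes, of which 553 were called up and 51 down. TTGACC or TTGACT occurred on either strand in 325 of the 553 (58.8%), in 17 of the 51 (33.3%) and in 33.1% of all promoters, and at 2 or more places in 27.3%, 7.84% and 7.89%. Genes that rose without reaching the criterion had it in 51.0% and those that fell without reaching it in 28.9%. Among genes called up the share was 74.5% at a log2 of 3 or more, 53.9% from 2 to 3 and 56.2% below 2. It lay between 45.5% and 65.0% in the 5 classes of expression, where all promoters had 31.4% to 34.1%.

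The bases before the start of 4 genes are shown because they give the range of this feature among strongly raised genes, 3 with several cores and 1 with none. They are printed 5′ to 3′ along the gene, the last base next to the start, from the TAIR10.1 assembly, with W-box cores of either strand in capitals. PROPEP3 lies at chr5:25939312-25939561 on the plus strand, ASB1 at chr1:8839610-8839859 on the minus strand, WRKY30 at chr5:8154711-8154960 on the minus strand and DHS1 at chr4:18539261-18539510 on the plus strand.
PROPEP3: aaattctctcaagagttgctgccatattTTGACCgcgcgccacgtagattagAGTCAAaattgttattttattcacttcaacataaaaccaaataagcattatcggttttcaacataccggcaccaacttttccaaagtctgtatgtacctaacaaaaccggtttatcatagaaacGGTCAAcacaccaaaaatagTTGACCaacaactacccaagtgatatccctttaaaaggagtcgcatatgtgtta
ASB1: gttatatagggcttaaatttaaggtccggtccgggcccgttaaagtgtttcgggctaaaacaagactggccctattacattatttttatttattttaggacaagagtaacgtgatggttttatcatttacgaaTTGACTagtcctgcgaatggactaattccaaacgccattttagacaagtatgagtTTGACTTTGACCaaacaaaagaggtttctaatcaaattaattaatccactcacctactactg
WRKY30: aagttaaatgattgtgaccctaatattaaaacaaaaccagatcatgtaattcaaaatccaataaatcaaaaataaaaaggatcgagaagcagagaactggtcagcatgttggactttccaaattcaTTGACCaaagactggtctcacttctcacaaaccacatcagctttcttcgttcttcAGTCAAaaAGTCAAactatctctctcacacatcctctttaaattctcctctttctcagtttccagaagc
DHS1: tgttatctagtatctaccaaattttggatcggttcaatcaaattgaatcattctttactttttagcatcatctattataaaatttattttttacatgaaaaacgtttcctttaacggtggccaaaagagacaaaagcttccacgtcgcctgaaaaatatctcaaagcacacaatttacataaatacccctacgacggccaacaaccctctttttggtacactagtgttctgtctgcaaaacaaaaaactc

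PROPEP3 encodes the precursor of a peptide that the cell releases as a danger signal, and its 4 cores begin at positions -222, -198, -74 and -54. Its group mean was 1025 in SWT CT and 73.5 in SWT water, a log2 of 3.80 (SE 0.37). The 3 cores of ASB1, a subunit of the first enzyme of tryptophan synthesis, lie at -117, -62 and -56, and its mean was 8174 in SWT CT and 760.1 in SWT water with a log2 of 3.43 (SE 0.17). WRKY30 has cores at -124, -69 and -61 and had 186 in SWT CT and 18.9 in SWT water, a log2 of 3.29 (SE 0.38). DHS1, the first enzyme of the shikimate pathway, rose by a log2 of 2.56 (SE 0.20), with 23799 in SWT CT and 4048 in SWT water, and its promoter holds none; nor do those of the other 3 shikimate genes called up. By list, 8 of 10 called cysteine-rich receptor-like kinases had a core, 7 of 9 WRKY genes, 6 of 7 glutathione S-transferases, 5 of 7 tryptophan genes and 1 of 5 MYB genes.

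Other motifs were searched on both strands in the same promoters. TTGACA, which differs from the W-box core in its last base, was in 30.0% of the genes called up and 20.6% of all, and GGGCC, bound by TCP factors, in 10.8% and 20.5%. The remaining shares for genes called up and for all promoters were 26.2% and 23.5% for TGACG, which shares the letters TGAC with the W-box core, 59.1% and 52.1% for TATAAA, and 10.5% and 7.39% for AACGTT. They were 7.05% and 8.55% for CACGTG, 3.07% and 3.55% for CACGCG, 3.25% and 2.57% for GCCGCC, 5.06% and 3.71% for CGCGTT, and 2.89% and 1.73% for CGCGGT. For ACCTACC they were 2.17% and 1.44%, and for AAAATATC 7.41% and 7.03%. A match is a run of letters and not a bound site.

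**Figure D3:**
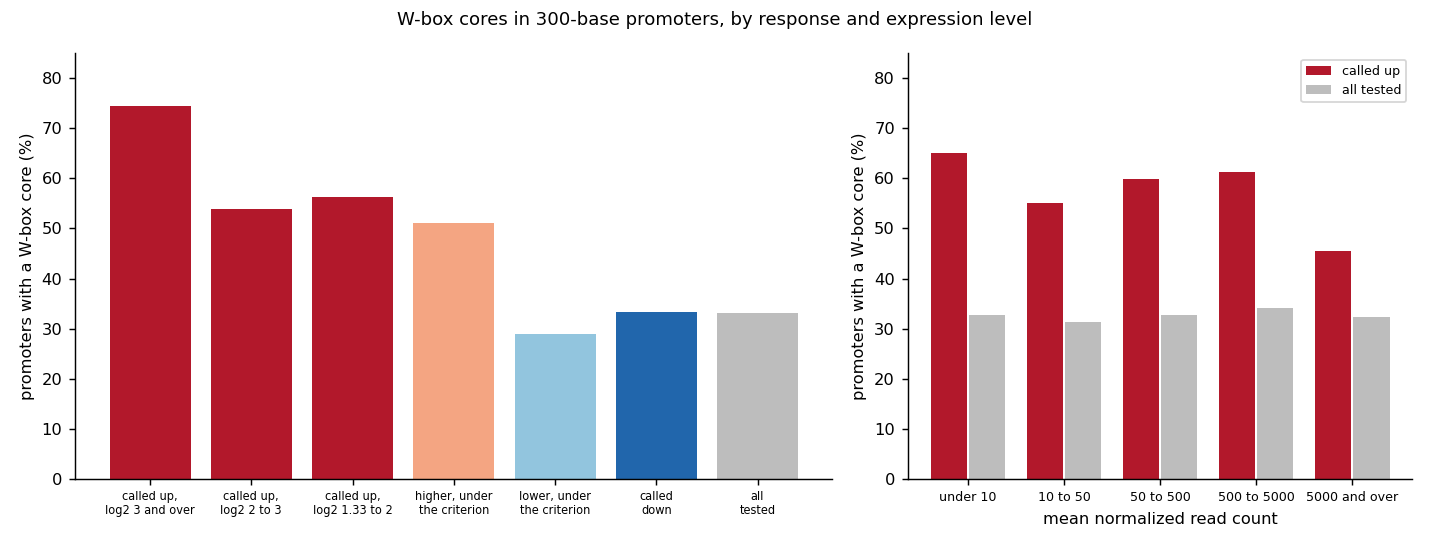
Percentage of promoters, each 300 bases, that hold TTGACC or TTGACT on either strand, on the left by the size and direction of the CT response in SWT and on the right for genes called up (red) and all genes tested (grey) in 5 classes of mean normalized read count. The bar for genes called up with a log2 of 3 or more reaches 74.5%, that of all promoters 33.1%.

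By function, the highest share of calls was in indolic metabolism. Genes were grouped into 71 lists in 12 roles, with 2426 genes in all, and 181 of the 561 genes called up (32.3%) and 18 of the 54 called down are in a list. Of 73 measured genes of indolic metabolism 28 (38.4%) were called up, followed by 15.5% of 71 phenylpropanoid genes and 14.4% of 263 receptor genes. The share was 8.77% for wall genes, 8.36% for detoxification, 8.33% for secretion, 7.65% for hormones, 5.93% for signalling, 5.65% for transcription factors and 4.37% for nutrition, against 2.43% of all genes. It was 0.531% for genes of basic cell functions. Of all genes called up 48 are annotated as uncharacterized.

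**Figure D4:**
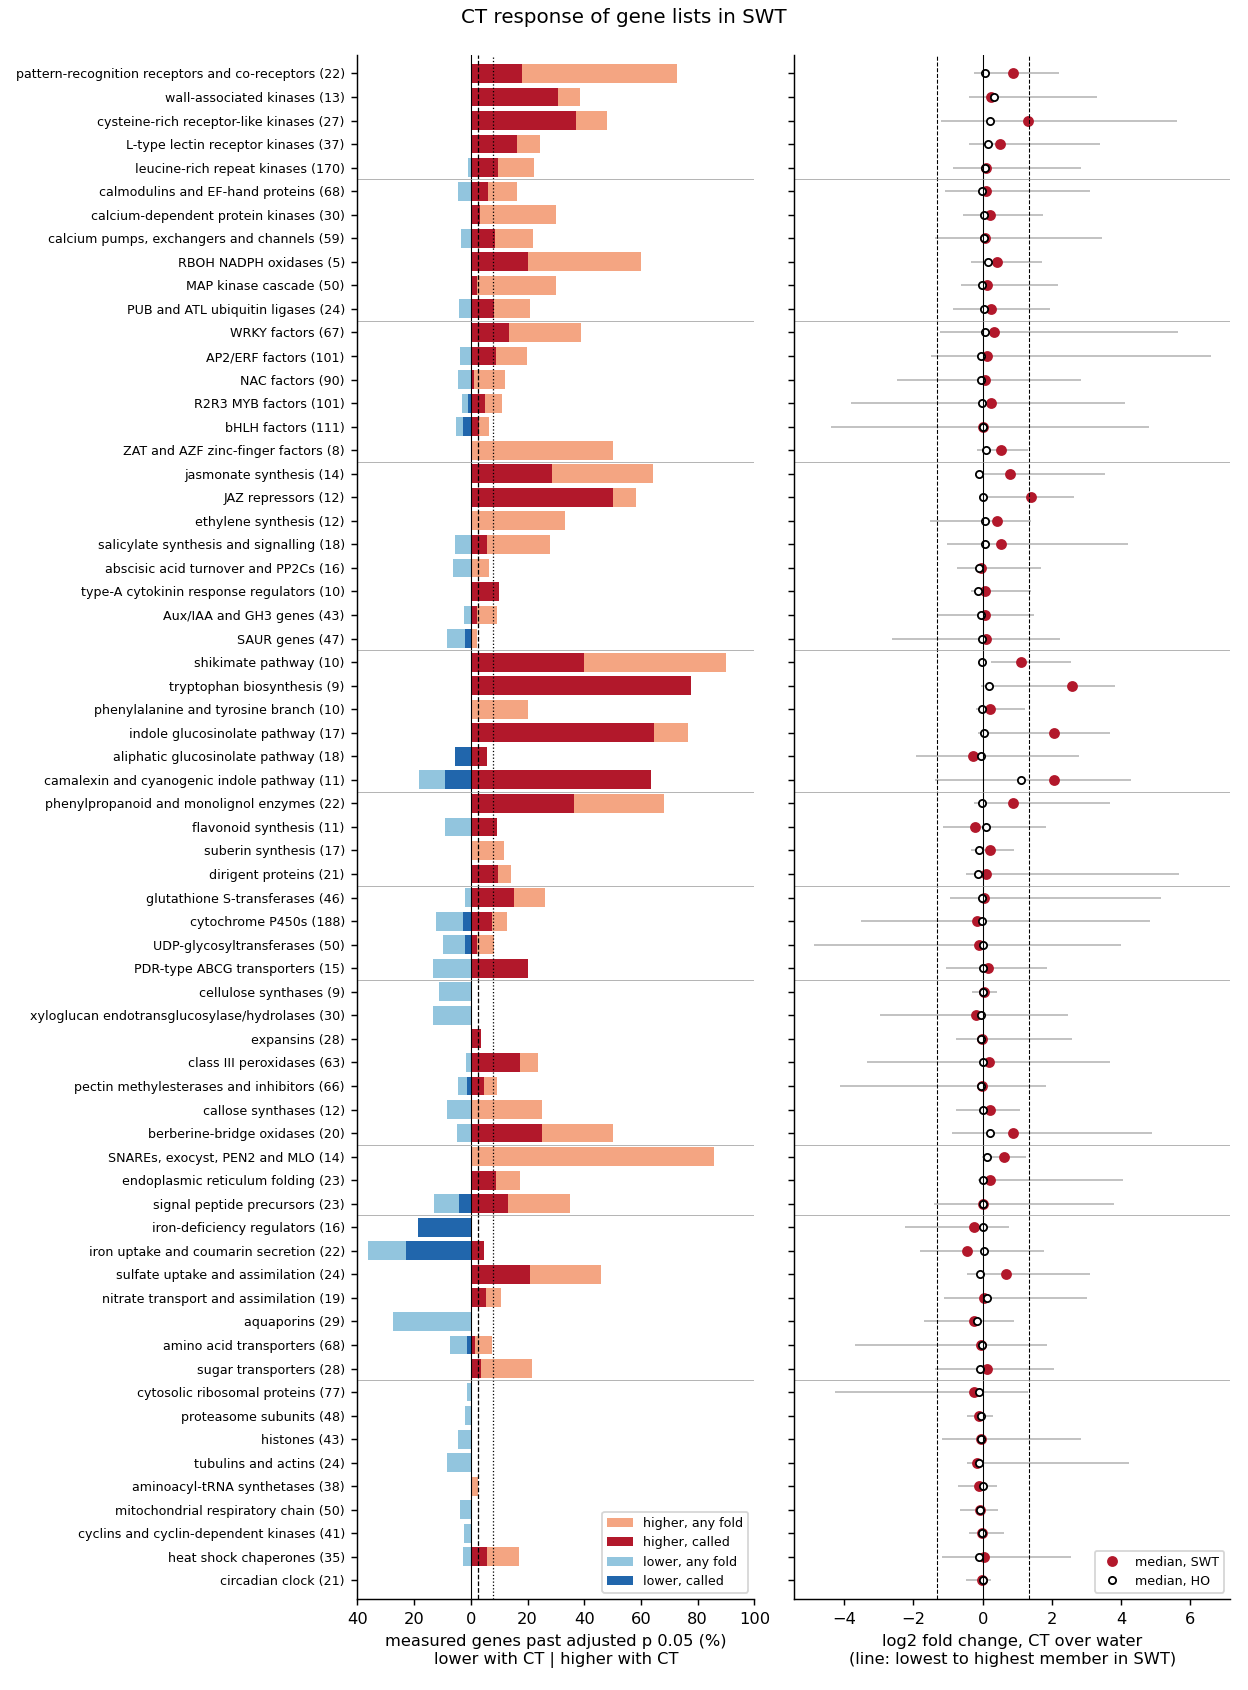
CT response of 65 gene lists in SWT, with the number of measured genes in brackets and thin lines between roles. Left, the percentage of genes that passed adjusted p 0.05, higher (right of 0) or lower (left of 0) with CT, at any fold (light) or called (dark), with the share of all genes called up (2.43%, dashed) and raised at any fold (7.82%, dotted); right, the median log2 of each list in SWT (red) and HO (open) over the range of its members in SWT, which shows shikimate, tryptophan and indole glucosinolate genes far to the right in SWT and near 0 in HO.

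The shikimate pathway makes chorismate, the common precursor of the aromatic amino acids. Of its 10 genes 9 rose and 4 were called, with log2 fold changes between 0.23 and 2.56 and a median of 1.12 (-0.01 in HO). The 4 called genes act at its entry and exit. DHS1 and another DAHP synthase, AT1G22410, with 30173 in SWT CT and 7913 in SWT water, catalyse the first step. AT2G45300, the enolpyruvylshikimate phosphate synthase, had 8755 in SWT CT and 2332 in SWT water (log2 1.91, SE 0.15), and EMB1144, chorismate synthase, 9615 in SWT CT and 2767 in SWT water (log2 1.80, SE 0.16). Enzymes between them rose less, MEE32 by a log2 of 1.18, AT5G66120 by 1.05 and SK2 by 0.97, as did DHS2, another gene for the first step, by 0.41, and AT1G48860, a second gene for the enolpyruvyl step, by 0.39. The log2 of SK1, a second shikimate kinase, was 0.23 (SE 0.18) and did not pass.

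Tryptophan synthesis had the highest median of the 71 lists, a log2 of 2.59 in SWT and 0.17 in HO, and 7 of 9 genes were called up, each with a larger response in SWT than in HO. ASA1, the catalytic subunit of anthranilate synthase (chr5:1719533-1722933, 8 exon blocks), had the largest change of the list, 12551 in SWT CT and 883 in SWT water, a log2 of 3.83 (SE 0.22) and an adjusted p of 4.27e-67 (Wald test, Benjamini-Hochberg). ASB1 followed. TRP1, the phosphoribosyltransferase of the pathway, rose by a log2 of 2.58 (SE 0.19), AT2G04400, the indole-3-glycerol phosphate synthase, by a log2 of 2.84 (SE 0.17), and TSA1, the alpha subunit of tryptophan synthase, by a log2 of 2.94 (SE 0.20). The beta subunit genes TSB1 and TSB2 were called up, TSB1 at 2.59 (SE 0.18) and TSB2 at 2.46 (SE 0.19) on the log2 scale. ASA2, a second anthranilate synthase gene, stayed at 520.4 in SWT CT and 501 in SWT water, a log2 of 0.05 (SE 0.13), and the isomerase PAI1 at -0.05. The 9 genes together held 0.400% of all counts in SWT CT and 0.0608% in SWT water.

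The phenylalanine and tyrosine branch, which also starts from chorismate, rose little. Of 10 measured genes 0 were called and 2 passed, ADT4, an arogenate dehydratase, with 2900.1 in SWT CT and 1232 in SWT water (log2 1.24, SE 0.13), and the arogenate dehydrogenase AT5G34930 with 0.53. The list median was 0.20 in SWT and 0.00 in HO. The 3 chorismate mutases, which take chorismate into this branch, had log2 values of 0.18 for CM1, -0.18 for CM2 and 0.10 for CM3.

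Indole glucosinolates are sulfur-rich tryptophan products stored against attack. Of 17 measured genes 13 rose, 11 of them called, with a median log2 of 2.06 (0.03 in HO). CYP83B1 had a log2 of 2.79 (SE 0.24), SOT16, which adds the sulfate group, had 14263 in SWT CT and 2493 in SWT water (log2 2.52, SE 0.19), and GGP1, a peptidase acting on the glutathione conjugate, 18692 in SWT CT and 4497 in SWT water (log2 2.06, SE 0.15). MYB51, a transcription factor that turns the pathway on, had 4339.7 in SWT CT and 341 in SWT water, a log2 of 3.67 (SE 0.25). The glucosinolate genes of the methionine branch had fewer calls: 1 of 18 was called up, SOT17 with a log2 of 2.78 (SE 0.25), 1 called down, CYP79F1 with a log2 of -1.93 (SE 0.60), and the median was -0.28. The call of CYP79F1 was lost with the robust spread (adjusted p 0.304, Wald test, Benjamini-Hochberg).

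Camalexin and the cyanogenic indole compounds are made from tryptophan by another set of P450s. Of 11 measured genes in the list, which also holds the coumarin gene CYP82C4, 7 were called up and 1 down. The median log2 of the list was 2.06 in SWT and 1.11 in HO. AT1G26380, a berberine-bridge oxidase, had 16097 in SWT CT and 821 in SWT water, a log2 of 4.29 (SE 0.58) in SWT and 1.98 (SE 0.59) in HO. CYP71A12 had 15569 in SWT CT and 2088 in SWT water, with a log2 of 2.90 (SE 0.56) in SWT and 2.32 (SE 0.56) in HO, and CYP82C2 6256 in SWT CT and 1016 in SWT water, with a log2 of 2.62 (SE 0.46) in SWT and 2.31 (SE 0.47) in HO. PAD3, the last enzyme of camalexin synthesis, rose by a log2 of 1.89 (SE 0.44), a call lost with the robust spread (adjusted p 0.0592, Wald test, Benjamini-Hochberg). Of these 7 genes GGP1 alone passed the test of a difference between SWT and HO; the SEs of the other 6 in SWT lay between 0.44 and 0.58, and a missed threshold does not show equal responses. CYP71A13 did not pass in SWT (log2 1.00, SE 0.60). The member called down was CYP82C4, which modifies a coumarin, with 591 in SWT CT and 1527 in SWT water. Its call was lost with the robust spread (adjusted p 0.452, Wald test, Benjamini-Hochberg) and when fold changes are centred on the ribosomal protein genes (log2 -1.11).

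**Figure D5:**
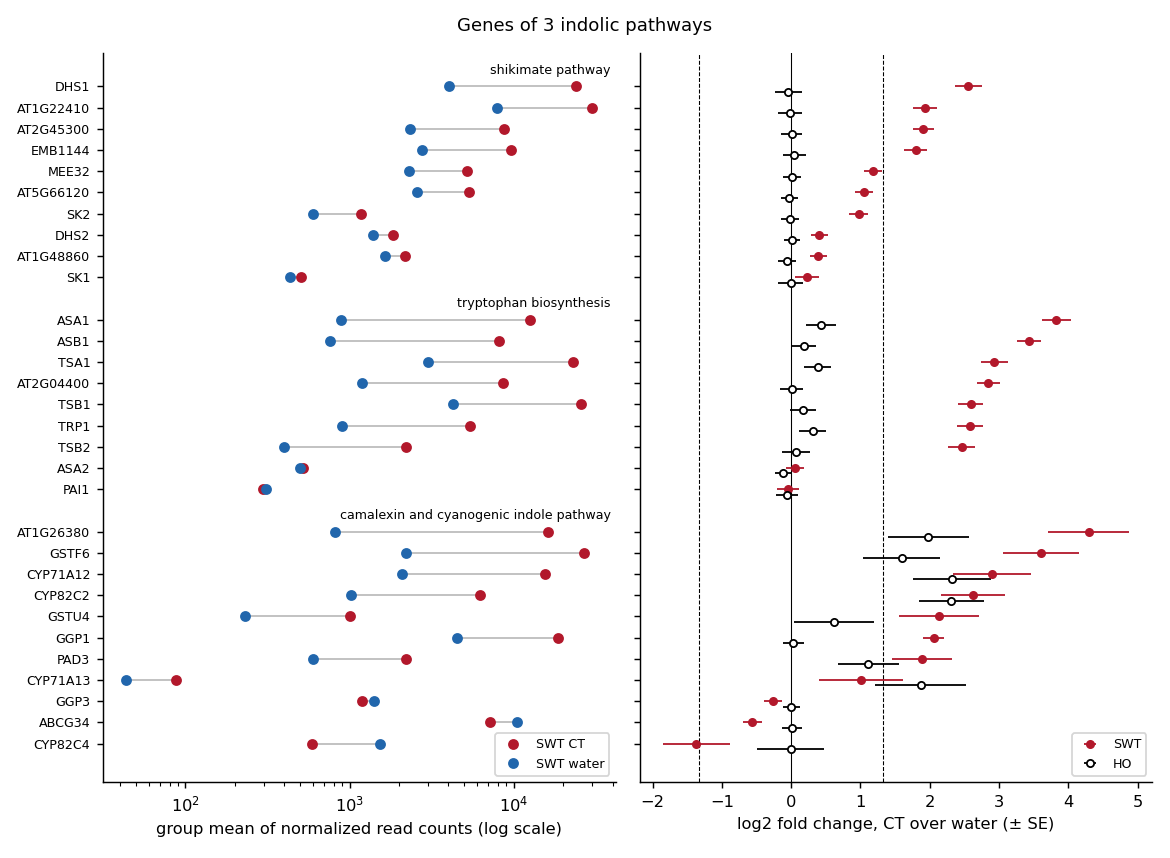
Genes of the shikimate, tryptophan and camalexin or cyanogenic lists, ordered by their response in SWT. Left, group means of normalized read counts in SWT CT (red) and SWT water (blue) on a log scale; right, log2 fold change of CT over water ± SE in SWT (red) and HO (open), with the fold criterion dashed: for tryptophan genes the HO values lie between -0.11 and 0.43, for CYP71A12 and CYP82C2 they lie at 2.32 and 2.31.

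Sulfate assimilation supplies the sulfur for these compounds. Of 24 genes 11 rose and 5 were called up, 0 fell, and the median log2 was 0.67 (-0.06 in HO). The kinases APK and APK2, which make the donor of sulfate groups, led the list: APK2 had 16019 in SWT CT and 1863 in SWT water (log2 3.104, SE 0.21) and APK 8039 in SWT CT and 1997 in SWT water (log2 2.01, SE 0.17). APS3, an ATP sulfurylase, had 1529 in SWT CT and 336 in SWT water (log2 2.19, SE 0.18). These genes held 0.713% of all counts in SWT CT and 0.331% in SWT water.

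Phenylpropanoid and monolignol enzymes turn phenylalanine into lignin units and related phenolics. Of 22 measured genes 15 rose, 8 of them called, and the median log2 was 0.89 (-0.02 in HO). 4CL1, which activates coumaric acid, had 24370.5 in SWT CT and 5765 in SWT water, a log2 of 2.08 (SE 0.19), the cinnamate hydroxylase C4H 48619.5 in SWT CT and 15499 in SWT water and 1.65 (SE 0.17), and the acyltransferase HCT 14342 in SWT CT and 5084 in SWT water and 1.496 (SE 0.15). The side branch to flavonoids had a median of -0.21 (0.05 when centred on the ribosomal protein genes), with LDOX called up at a low level (32.9 in SWT CT and 9.30 in SWT water), the hydroxylase TT7 falling (log2 -0.82, SE 0.24) and the chalcone synthase TT4 at -0.43 (SE 0.17). LDOX was no longer called with the robust spread (adjusted p 0.436, Wald test, Benjamini-Hochberg). Of 17 suberin genes 0 were called and 2 rose. Dirigent proteins, which steer the coupling of phenolics, gave 2 calls among 21 genes: DIR5 with 1751 in SWT CT and 34.3 in SWT water (log2 5.67, SE 1.14) and AT3G13650 with 5263 in SWT CT and 900.1 in SWT water (log2 2.55, SE 0.26).

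Pattern-recognition receptors rose broadly, while in the other receptor kinase families most members did not pass the test. Not passing were 14 of 27 cysteine-rich, 8 of 13 wall-associated, 28 of 37 L-type lectin and 130 of 170 leucine-rich repeat kinases. The leucine-rich repeat kinases had a median log2 of 0.09, with 38 rising and 2 falling. Of 22 pattern-recognition receptors and co-receptors 16 rose and 0 fell, although only 4 were called, and the median log2 was 0.88 (0.07 in HO). FRK1, a receptor kinase used as a marker of early defence, had 1817 in SWT CT and 391 in SWT water (log2 2.22, SE 0.26), IOS1 7984 in SWT CT and 2861 in SWT water (log2 1.48, SE 0.18) and the co-receptor SERK4 1261 in SWT CT and 423 in SWT water (log2 1.57, SE 0.17). Cysteine-rich receptor-like kinases had 10 of 27 called up: CRK20 had 314 in SWT CT and 13.8 in SWT water (log2 4.51, SE 0.54), CRK10 581 in SWT CT and 72.0 in SWT water (log2 3.01, SE 0.28) and EMB1290 159.9 in SWT CT and 13.2 in SWT water (log2 3.60, SE 0.47). Of 13 wall-associated kinases, a family known for binding pectin, 4 were called up, WAKL10 with a log2 of 3.31 (SE 0.44), WAKL5 with a log2 of 1.92 (SE 0.29) and WAKL4 with a log2 of 1.87 (SE 0.26). L-type lectin kinases gave 6 calls of 37, led by AT5G65600 with a log2 of 3.38 (SE 0.41) and AT3G59750 with a log2 of 2.99 (SE 0.30). In the large family of leucine-rich repeat kinases 16 of 170 were called, among them AT1G56130, which is annotated like CORK1 as a leucine-rich repeat transmembrane kinase, with 609 in SWT CT and 93.4 in SWT water (log2 2.704, SE 0.29). CORK1 itself passed the test with a small rise, 1999 in SWT CT and 1413 in SWT water, a log2 of 0.50 (SE 0.15) and an adjusted p of 0.00919 (Wald test, Benjamini-Hochberg).

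Of 236 measured genes of early signalling 56 rose and 6 fell, and 14 (5.93%, beside 2.43% of all genes) were called up. Among 50 MAP kinase cascade genes 15 rose (30%, against 7.82% of all genes) and 0 fell. MPK11 was the only call (2% of the list) at 58.3 in SWT CT and 12.8 in SWT water. With the robust spread 0 of the 50 were called (MPK11 at an adjusted p of 0.0874, Wald test, Benjamini-Hochberg), and the response of MPK11 was not shown to differ from HO (adjusted p 0.759, z test, Benjamini-Hochberg). Of 30 calcium-dependent protein kinases 9 rose (30%) and 1 was called (3.33%), CPK27 (1471 in SWT CT and 449 in SWT water, log2 1.71, SE 0.24). RBOHA, an NADPH oxidase that makes superoxide, was called with 1370.5 in SWT CT and 419 in SWT water (log2 1.71, SE 0.22), while RBOHD rose by a log2 of 1.02 (SE 0.15) and RBOHF by a log2 of 0.43 (SE 0.11). Calcium channels and pumps gave 5 calls of 59, among them the cyclic nucleotide-gated channels CNGC10 (log2 1.99) and CNGC13 (log2 1.63) and the glutamate receptor GLR1.3 (log2 1.37). TCH3, a calmodulin-like protein, had 4032 in SWT CT and 541 in SWT water (log2 2.90, SE 0.52) and CML42 3226 in SWT CT and 1175 in SWT water (log2 1.46, SE 0.12). The ubiquitin ligases PUB22 and PUB23, known to restrain defence, had log2 values of 1.67 (SE 0.16) for PUB22 and 1.95 (SE 0.25) for PUB23, and both passed.

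WRKY genes rose in 26 of 67 cases and fell in 0, with 9 called: beside WRKY30 these included WRKY63 (log2 2.33, SE 0.30) and WRKY29 (log2 1.37, SE 0.20). AP2/ERF genes gave 9 calls of 101, led by ABR1 with 1328 in SWT CT and 139 in SWT water (log2 3.25, SE 0.34), and ERF6 rose by a log2 of 1.45 (SE 0.20). R2R3 MYB genes gave 5 calls up and 1 down. MYB15, a regulator of phenylpropanoid defence, had 1471 in SWT CT and 85.4 in SWT water (log2 4.11, SE 0.53) and MYB122, which works beside MYB51, 559.7 in SWT CT and 119 in SWT water (log2 2.23, SE 0.30), while MYB48 was lower with 107 in SWT CT and 289.8 in SWT water, a call lost with the robust spread (adjusted p 0.0934, Wald test, Benjamini-Hochberg) and when centred on the ribosomal protein genes (log2 -1.18). NAC genes gave 1 call of 90 (1.11%, beside 2.43% of all genes), NAC042 with a log2 of 2.398 (SE 0.40). Basic helix-loop-helix genes were split, with 3 of 111 called up (2.7%) and 3 down, beside 2.43% and 0.234% of all genes. AT5G56960 led upward with a log2 of 4.08 (SE 0.49), and the genes called down belong to the iron response below. Of 8 zinc-finger genes of the ZAT and AZF group 4 rose, STZ by a log2 of 1.32 (SE 0.15), which is just under the criterion, and 0 were called.

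Jasmonate genes made up 10 of the 13 calls up in the hormone lists. This lipid hormone acts by removal of JAZ repressors, whose genes it also switches on. Of 12 JAZ genes 7 rose and 6 were called, with a median log2 of 1.41 (0.01 in HO): JAZ1 had 4395 in SWT CT and 1228 in SWT water (log2 1.84, SE 0.22), JAZ6 1902 in SWT CT and 382 in SWT water (log2 2.31, SE 0.22) and JAZ9 625 in SWT CT and 158 in SWT water (log2 1.98, SE 0.33). JAZ3, JAZ4, JAZ7, JAZ11 and JAZ12 lay between -0.06 and 0.49 and did not pass. Of 14 synthesis genes 9 rose and 4 were called, the lipoxygenases LOX3 (77.9 in SWT CT and 6.75 in SWT water) and LOX4 (179 in SWT CT and 32.9 in SWT water) and the reductase OPR3 (2245 in SWT CT and 796 in SWT water) among them. Ethylene synthesis gave 4 rises of 12 and 0 calls, and salicylate genes 5 rises of 18 with CBP60G, a regulator of salicylate synthesis, called with a log2 of 1.89 (SE 0.42) in SWT and 1.52 (SE 0.48) in HO. In other hormone lists 1 of 43 Aux/IAA and GH3 genes (2.33%) and 1 of 10 type-A cytokinin regulators (10%) were called up, beside 2.43% of all genes. The cytokinin regulator was ARR7 (log2 1.38, SE 0.33). Of 16 abscisic acid genes 0 were called up, and 1 of 47 SAUR genes was called down, beside 0.234% of all genes. Counts this small show neither a response of these lists nor the lack of one. ARR7 lost its call with the robust spread (adjusted p 0.084, Wald test, Benjamini-Hochberg).

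Detoxification enzymes moved in both directions. Glutathione S-transferases had 7 of 46 called up, GSTU12 with 1669 in SWT CT and 46.9 in SWT water (log2 5.15, SE 0.64), GSTF6 with 26845 in SWT CT and 2204 in SWT water (log2 3.61, SE 0.55) and GSTF2 with 1719 in SWT CT and 294 in SWT water (log2 2.55, SE 0.34). Cytochrome P450s gave 14 calls up (7.45%, against 2.43% of all genes) and 5 down among 188. Of the same 188 genes 24 rose (12.8%, against 7.82% of all genes) and 23 fell (12.2%, against 3.04%). CYP706A1 had 2304 in SWT CT and 159 in SWT water (log2 3.85, SE 0.32) on the one side, CYP89A2 53.6 in SWT CT and 167 in SWT water (log2 -1.64, SE 0.42) on the other, though CYP89A2 was not called with the robust spread (adjusted p 0.123, Wald test, Benjamini-Hochberg). Of 50 UDP-glycosyltransferases 1 was called up (2%, beside 2.43% of all genes) and 1 down. Called up was UGT74B1 of the glucosinolate pathway with a log2 of 2.23 (SE 0.18), and called down was UGT78D3. The counts of UGT78D3 summed to 1 over SWT CT and 16 over SWT water after rounding, and its call was lost with the robust spread (adjusted p 0.309, Wald test, Benjamini-Hochberg). Among 15 transporters of the PDR type 3 were called up, PEN3, ABCG42 (log2 1.75, SE 0.23) and ABCG43 (log2 1.86, SE 0.57), of which ABCG43 lost its call with the robust spread (adjusted p 0.297, Wald test, Benjamini-Hochberg).

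In the lists of enzymes that build or remodel wall polymers, between 0% and 4.55% of the genes were called up, beside 2.43% of all genes. Of 9 cellulose synthases 0 rose and 1 fell, CESA2 with a log2 of -0.31 (SE 0.10), and the others lay between -0.23 and 0.42. Xyloglucan endotransglucosylases gave 0 calls and 4 falls among 30 (13.3%, against 3.04% of all genes), with log2 values between -2.97 and 2.45, and expansins 1 call among 28. Families of oxidative enzymes placed in the wall role had larger shares called up, 17.5% of the class III peroxidases and 25% of the berberine-bridge oxidases. The latter are not wall enzymes only, since their called genes include AT1G26380, which is also in the camalexin and cyanogenic list. The peroxidases gave 11 calls of 63. Prx37 had 11648 in SWT CT and 2591 in SWT water (log2 2.17, SE 0.24). PER4 had 4577 in SWT CT and 846 in SWT water (log2 2.44, SE 0.24), and AT1G14550 a log2 of 2.59 (SE 0.21). Of 20 berberine-bridge oxidases, some of which oxidize wall oligosaccharides, 10 rose and 5 were called; AT4G20830 had 8241 in SWT CT and 2121 in SWT water (log2 1.96, SE 0.15) and AT1G30760 2559 in SWT CT and 844 in SWT water (log2 1.60, SE 0.24). Callose synthases gave 0 calls of 12, with 3 rises (25%, against 7.82% of all genes), GSL04 (log2 1.09, SE 0.18), GSL05 (log2 0.73, SE 0.17) and GSL11 (log2 0.50, SE 0.17) and 1 fall, CALS1 (log2 -0.75, SE 0.18). Pectin methylesterases and their inhibitors gave 3 calls up and 1 down among 66.

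Secretion genes rose by small steps. Of 14 genes linked to defence at the plasma membrane, for SNARE and exocyst proteins, MLO proteins and the myrosinase PEN2, 12 rose and 0 were called, and the median log2 was 0.63 (0.12 in HO). Of 23 genes for peptide signals 3 were called up, PROPEP3, PROPEP2 with 285 in SWT CT and 37.5 in SWT water (log2 2.92, SE 0.40) and PSK2, the precursor of the growth peptide phytosulfokine, with 966 in SWT CT and 183 in SWT water (log2 2.403, SE 0.57), and RALFL27 was called down with 70.4 in SWT CT and 186 in SWT water. PSK2 lost its call with the robust spread (adjusted p 0.0781, Wald test, Benjamini-Hochberg), and RALFL27 when centred on the ribosomal protein genes (log2 -1.14). Chaperones of the endoplasmic reticulum gave 2 calls of 23, BIP3 (91.2 in SWT CT and 5.45 in SWT water) and ERDJ3A (661 in SWT CT and 247 in SWT water), the call of ERDJ3A being lost with the robust spread (adjusted p 0.149, Wald test, Benjamini-Hochberg).

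Of the 18 genes called down that are in a list, 8 belong to the iron response. Iron-starved roots raise a set of helix-loop-helix regulators and, through them, uptake proteins and coumarins that dissolve iron. Of 16 regulators 3 were called down (18.8%, against 0.234% of all genes) and 0 up. The regulators called down included BHLH100 with 21.8 in SWT CT and 103 in SWT water (log2 -2.24, SE 0.54) and BHLH39 with 125 in SWT CT and 395 in SWT water (log2 -1.66, SE 0.29). Of 22 uptake and coumarin genes 8 fell (36.4%, against 3.04% of all genes), 5 of them called. IRT1, the main iron transporter of the root surface, had 1010.0 in SWT CT and 3263 in SWT water (log2 -1.69, SE 0.49), and NAS1, which makes the iron chelator nicotianamine, 817 in SWT CT and 2618 in SWT water. A second such gene, NAS2, had 199.5 in SWT CT and 544 in SWT water, and its call was lost when centred on the ribosomal protein genes (log2 -1.19). With the robust spread BHLH100 and IRT1 were no longer called (adjusted p 0.0857 and 0.241, Wald test, Benjamini-Hochberg). F6'H1, the entry enzyme of coumarin synthesis, went the other way with 14622 in SWT CT and 4312 in SWT water (log2 1.76, SE 0.17).

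Water and nutrient transport changed in parts. Of 29 aquaporins 8 fell (27.6%, against 3.04% of all genes), 0 rose (against 7.82%) and 0 were called. The median log2 was -0.26 in SWT and -0.16 in HO, and the SWT median is 0.00 when fold changes are centred on the ribosomal protein genes. TIP2, the aquaporin of highest mean count, had 22680.1 in SWT CT and 31314 in SWT water (log2 -0.47, SE 0.22) and did not pass. The nitrate list gave 1 call of 19 (5.26%, beside 2.43% of all genes), NRT2.5 with 42.0 in SWT CT and 5.23 in SWT water. This call was lost with the robust spread (adjusted p 0.183, Wald test, Benjamini-Hochberg). The nitrate transporter NRT1.5, described above, is not a member of that list and was called down (log2 -2.01, SE 0.29). NRT2.1 (log2 -0.22, SE 0.45) and the phosphate transporter PHT1;1 (log2 -0.03, SE 0.17) did not pass. Among 68 amino acid transporters AAP3 was called up (1880.0 in SWT CT and 515 in SWT water) and UMAMIT36 down (25.4 in SWT CT and 323 in SWT water). Of 28 sugar transporters 6 rose (21.4%, against 7.82% of all genes), PMT6 being called with 1926 in SWT CT and 531 in SWT water. The share called up was 1.47% of the amino acid transporters and 3.57% of the sugar transporters, beside 2.43% of all genes. Single calls like these show neither a response of the lists nor the lack of one.

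Genes of basic functions gave 2 calls among 377, both in the heat shock list, HSP90.1 with 9046 in SWT CT and 1555 in SWT water and the heat shock factor HSFA2 with 249.6 in SWT CT and 77.7 in SWT water. With the robust spread 0 of the 377 were called, HSFA2 having an adjusted p of 0.274 (Wald test, Benjamini-Hochberg). Medians were -0.26 for 77 cytosolic ribosomal protein genes, -0.09 for 48 proteasome genes, -0.08 for 50 genes of the respiratory chain, -0.03 for 41 cyclins and their kinases and -0.03 for 21 clock genes, of which 0 passed, and all 5 medians are at or above 0 when fold changes are centred on the ribosomal protein genes. ACT2, an actin used as a reference in many assays, had 20592 in SWT CT and 22069 in SWT water (log2 -0.10, SE 0.14). Since the values are relative, the summed recovered counts were higher with CT than with water by a log2 of 0.11, while the median gene with a mean of at least 50 lay at -0.02.

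Families by annotated product, chosen after their values were seen, added groups outside the lists. Of 10 genes annotated as chitinase family proteins 5 were called up, of 20 S-locus lectin kinases 7, of 8 genes with the domain DUF1262 4 and of 11 O-methyltransferases 5. Of 191 pentatricopeptide repeat genes 0 were called and 2 rose, and of 257 tetratricopeptide repeat genes 0 were called, 5 rising and 8 falling.

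Genes called up often had few exons and often lay beside one another. Of the protein-coding genes called up 22.8% had a single exon block and 9.58% had 10 or more, against 17.0% and 18% of all protein-coding genes tested; those called down had 27.5% and 0. Of the 561 genes 110 (19.6%) lay directly next to another gene called up, as did 4.35% of the other genes. They formed 51 runs of neighbours, 23 of them of 1 annotated product, and 22 with at least 1 gene that overlaps another annotated gene. The longest, chosen after its values were seen, is the cluster of IGMT1, IGMT3, IGMT2 and IGMT4 (chr1:7386762-7400736), methyltransferases that modify indole glucosinolates, with log2 fold changes of 1.67, 1.40, 3.68 and 2.62, where IGMT1 lost its call with the robust spread (adjusted p 0.0982, Wald test, Benjamini-Hochberg). By chromosome the share called up ranged between 1.94% on chromosome 5 and 3.05% on chromosome 4.

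Some counts are uncertain. Of the genes called up 140 overlap another annotated gene, as do 12 of those called down, and the sources used here do not give whether reads were assigned by strand. Among the genes described, this touches 4CL1, AAP3, ABCG42, ABR1, APS3, ASA1, ASB1, AT2G04400, AT4G20830, AT4G31398, AT5G34930, AT5G41050, AT5G56960, AT5G65600, CA1, CALS1, CASP1, CM3, CRK10, CYP71A13, DHS2, EMB1144, EMB1290, ERDJ3A, F6'H1, FRK1, GSTF2, JAZ12, LHCB1.3, LHCB4.2, LOX1, NAC042, NRT1.5, PUB23, RBOHA, SK1, TCH3, TRP1, TT4 and WRKY29. Reads may also be shared between close copies such as the IGMT genes, TSB1 and TSB2, NAS1 and NAS2, and GSTF6 and its neighbour GSTF7, and it is not known how the counting treated them.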

How the data were processed

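Poly-A RNA of SWT and HO roots was sequenced as paired 150-base reads on a NovaSeq. The authors aligned the reads to TAIR10 with STAR (2.7.10a), counted them per gene with featureCounts (2.0.1) and fitted the counts with DESeq2 (1.34.0) over 12 libraries. The authors deposited, per gene, the mean normalized count over all libraries (a signal, counts divided by size factors). The deposited log2 fold changes and their SEs, Wald statistics (a score) and p-values are the authors' fit, and they are used here as the test of CT over water, with the study's criteria of adjusted p below 0.05 and a change of 2.51-fold. Depth per library is unknown. The sources used here do not give whether reads were counted by strand.

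The mean count and the 3 deposited log2 fold changes together gave the 4 group means, and the SE gave the spread. The responses of SWT and HO were compared by a z test of their difference, and the fold criterion by a one-sided z test, both with Benjamini-Hochberg adjustment in scipy (1.17.1), pandas (2.3.3) and numpy (2.4.6) under Python (3.11.15). These scripts were tested on simulated data. RefSeq TAIR10.1 annotated 22984 of 23106 genes (99.5%) and gave the promoters. The lists and members were chosen with earlier results of these data known. In each list the called genes with the smallest p were named (at most 3 up and 2 down, or the gene of highest mean where none was called), with CORK1, the extremes of 5 classes of mean count, and any member of lists of up to 12; other genes named, such as GSTF7 and most IGMT genes, were chosen after their values were seen. Intervals and floors cover counting error only. Alternatives changed the criteria, the spread, the filter on low means and the scaling.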

Additional observations from a re-analysis of the deposited data

Results flagged for a closer look

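Where the CT responses of SWT and HO differed in the z test on their difference (Benjamini-Hochberg over 23103 genes), the result was marked for a closer look. This held for 349 of the genes called up and 21 of those called down. Of the 120 genes named in the text and called in SWT it held for 89, with 80 more positive and 9 more negative in SWT, and for 31 it did not. All values below are differences of the log2 responses, SWT minus HO, so a response of opposite sign in HO enlarges them. Among the genes so affected, the log2 in HO was -1.11 (SE 0.58) for LDOX, -0.71 (SE 1.17) for DIR5 and -0.76 (SE 0.85) for RLP38. It was -0.99 (SE 1.01) for BIP3 and 0.88 (SE 1.07) for UGT78D3. None of these passed the test in HO.

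In indolic metabolism the difference was 3.40 for ASA1, 3.24 for ASB1, 2.83 for AT2G04400, 2.55 for TSA1, 2.42 for TSB1, 2.39 for TSB2 and 2.27 for TRP1. The shikimate genes DHS1, AT1G22410, AT2G45300 and EMB1144 differed by 2.60, 1.94, 1.903 and 1.75. Glucosinolate genes differed by 3.07 for MYB51, 2.71 for CYP83B1, 2.64 for SOT17, 2.53 for SOT16, 2.36 for IGMT2, 2.15 for UGT74B1, 2.02 for GGP1 and 0.92 for IGMT3. Sulfate genes followed with 3.15 for APK2, 2.04 for APS3 and 2.04 for APK.

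Among phenolic, detoxification and wall genes the difference was 6.38 for DIR5, 3.47 for GSTU12, 3.37 for CYP706A1, 2.94 for LDOX, 2.51 for AT3G13650, 2.41 for AT1G14550, 2.29 for GSTF2 and 2.08 for Prx37. It was 2.05 for 4CL1, 1.903 for AT4G20830, 1.89 for PER4, 1.78 for ABCG42, 1.62 for AT1G30760, 1.60 for C4H, 1.57 for HCT, 1.44 for F6'H1 and 1.26 for PEN3.

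Receptors and signalling genes differed by 5.72 for RLP38, 3.75 for EMB1290, 3.15 for TCH3, 2.88 for CRK10, 2.85 for AT3G59750, 2.45 for PROPEP3, 2.41 for AT1G56130, 2.28 for PROPEP2, 1.87 for FRK1 and 1.78 for CNGC10. Smaller differences were 1.69 for PUB23, 1.62 for WAKL5, 1.60 for CNGC13, 1.58 for SERK4, 1.45 for PUB22, 1.43 for RBOHA, 1.41 for WAKL4, 1.36 for CML42, 1.328 for CPK27, 1.22 for IOS1 and 1.16 for GLR1.3.

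Transcription factors differed by 3.63 for MYB15, 3.44 for ABR1, 2.91 for AT5G56960, 2.66 for WRKY30, 1.92 for WRKY63, 1.84 for MYB122, 1.328 for ERF6 and 1.14 for WRKY29. Hormone and other genes differed by 5.05 for BIP3, 4.89 for AT1G15625, 3.55 for LOX3, 2.21 for JAZ6, 2.19 for JAZ9, 2.18 for LOX4, 1.76 for JAZ1, 1.75 for AAP3, 1.74 for LOX1, 1.71 for PMT6, 1.59 for OPR3 and 1.51 for ARR7. The responses more negative in SWT differed by -5.76 for UGT78D3, -4.28 for UMAMIT36, -2.54 for BHLH100, -2.25 for NRT1.5, -2.25 for CYP71B26, -1.70 for BHLH39, -1.68 for NAS1, -1.61 for NAS2 and -1.38 for RALFL27.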

How the results depend on the processing

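The tables hold no values per library, so leaving out each replicate in turn was not run, and whether 1 library carries a call could not be examined. No paired analysis was possible because the tables hold no values per library. The direction of the response held under the alternatives run: 91.2% of called genes were up, and 72.0% without the fold criterion. The 615 calls became 2508 without that criterion (1806 up, 702 down) and 139 in the z test against it (139 up, 0 down; 4808 genes had an unadjusted p below 0.05 in the Wald test). The 54 genes called down became 35 at an adjusted p below 0.01, 20 with Wald statistics divided by their robust spread of 1.45, 31 among genes with a mean of at least 50, 84 at equal summed counts and 32 when centred on the median ribosomal protein gene (a shift of 0.26). The genes called up stayed between 419 and 813 under those settings. The 913 genes that differed between SWT and HO became 578 at an adjusted p below 0.01, 586 with the robust spread and 357 with a difference of at least 2.51-fold as well. Of the genes named and called, 22 lost their call with the robust spread, each given beside its values, and 69 did not pass against the fold criterion. Equal summed counts took the call from ARR7, IGMT3, ERDJ3A, WRKY29 and GLR1.3. Centring on ribosomal genes took it from RALFL27, MYB48, CYP82C4 and NAS2 and added STZ, MEE32, GSL04 and ADT4, and centring on the median gene added STZ. List medians changed sign for 13 lists at equal summed counts and 21 when centred on ribosomal genes. Depth limits genes under 10 counts most, since 44.0% of them had no adjusted p.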
